A study of Mus musculus with 6 samples.

Results

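The comparison described here set the PGC-1alpha -/- brown fat cells that expressed a control siRNA against the average of the other groups of the study, and asked which genes moved one way in PGC-1alpha -/- cells and moved back when PGC-1beta was knocked down as well. All 6 arrays of the study entered, 2 in each of 3 groups: wild type, PGC-1alpha -/- with a control siRNA (knockout-control) and PGC-1alpha -/- with a siRNA against PGC-1beta (knockdown). A gene was called out and back where its knockout-control level differed from the average of the wild-type and knockdown means (adjusted p under 0.05), the first step (knockout-control minus wild type) and the second step (knockdown minus knockout-control) had opposite signs, and each step was at least 1.5-fold. These rules took 75 of 13644 genes, 28 highest and 47 lowest in knockout-control.

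The cells were brown preadipocytes immortalized with SV40 large T antigen that had been differentiated in culture for 7 days, and RNA was measured on single-colour oligonucleotide arrays. Both other groups are labelled PGC-1alpha -/- and as expressing a siRNA, whereas the wild-type titles name none, so the first step holds the genotype, the siRNA construct and any difference between cell lines, which cannot be told apart. The labels give a mixed mouse background and passage 4 for wild-type cells alone. The study's design calls the 2 arrays of a group biological replicates; the labels give no separate animals or cell lines, so p-values measure the spread between these arrays.

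PGC-1alpha and PGC-1beta are related transcriptional coactivators: they do not bind DNA themselves but are recruited by nuclear receptors and other factors, and they raise the expression of genes of mitochondrial biogenesis and oxidative metabolism. In brown fat, PGC-1alpha is induced by cold through cAMP and drives Ucp1, the uncoupling protein that releases heat, while PGC-1beta is an inducer of mitochondrial genes that does not need that stimulus. The coactivators overlap in their targets. The out-and-back genes described here were selected for steps of opposite sign.

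Ppargc1b, which encodes PGC-1beta, was measured at 2849.5 and 3162 in wild type, 1862 and 2302 in knockout-control and 534 and 224 in knockdown, in intensity units. It lay lowest on the knockdown arrays, and the first step was -0.53 (0.397) and the second -2.47 (0.0217) on the log2 scale, with limma adjusted p-values in brackets. For Ppargc1a, which encodes PGC-1alpha, the brightest probe set read 1338 and 1319 in wild type, 767 and 830.4 in knockout-control and 1146 and 648 in knockdown. Signal remained in the cells labelled PGC-1alpha -/-, the first step of -0.71 was not called (limma adjusted p = 0.125), and whether the probes lie in the deleted part was not stated. On the brighter of its 2 probe sets the Y-linked gene Eif2s3y read 872 and 961 in wild type and was at most 6.25 or without a value in the other groups, while the dimmer set read at most 54.5 in any group. Xist, transcribed from the inactive X chromosome, read 57.9 and 116 in wild type and 3409 and 4307 in knockout-control on its brightest probe set, so wild-type and PGC-1alpha -/- cells also differed in sex-linked transcripts. Array medians lay between 221 and 243, but the 95th percentile was 2086 on knockout-control array 1 and 1863 on knockdown array 2, against 2341 to 2482 on the others. In these bulk samples, fewer cells of a type and less RNA per cell cannot be told apart.

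The knockout-control arrays differed from the average of the other groups at 234 of 13644 genes (1.72%), 110 higher (0.806%) and 124 lower (0.909%), and an unadjusted p under 0.05 was reached by 2119 genes. Of the 234, 202 had steps of opposite sign and 32 had steps in the same direction. The minimum of 1.5-fold at each step left the 28 genes highest (0.205%) and the 47 genes lowest (0.344%) in knockout-control. Their adjusted p-values ran from 0.00341 to 0.0497. On all but 1 of the 75, both knockout-control arrays lay beyond all 4 other arrays, which 2423 of all genes tested (17.8%) did. The rule chose genes on these same arrays and favours such separation, so this is no further support. The exception was Gsta4, at 80.4 on a knockout-control array and 79.2 on a knockdown array. A filter kept genes whose mean level over all arrays was above an intensity of 164; of the members, 9 of the highest lay below it in wild type and 11 of the lowest lay below it in knockout-control, so these passed through other groups. Just inside the fold limit were Cd74 and Gsta4, each with a smaller step of 1.507-fold, and just outside it were Prtn3, at 1.499-fold, and Gm5817, at 1.498-fold.

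The steps were also tested by themselves. The first step was called at 825 genes (6.05%) and the second at 114 (0.836%). Both steps use the knockout-control arrays, so noise in those arrays alone moves them in opposite directions, and 8184 of the 13644 genes had opposite steps. When each gene was instead given the larger of its unadjusted p-values for the steps, 0 genes passed after adjustment (0%), the lowest adjusted p was 0.242, and 522 genes had a larger p under 0.05, among them all 75. With the steps adjusted separately, both were called at 8 of the 28 highest and 10 of the 47 lowest genes, and neither was called at 1 and 2 of them. The rule chose the members by the sign and size of these same steps, so the counts are no further support. The share of all genes with both steps called was not computed.

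**Figure D1:**
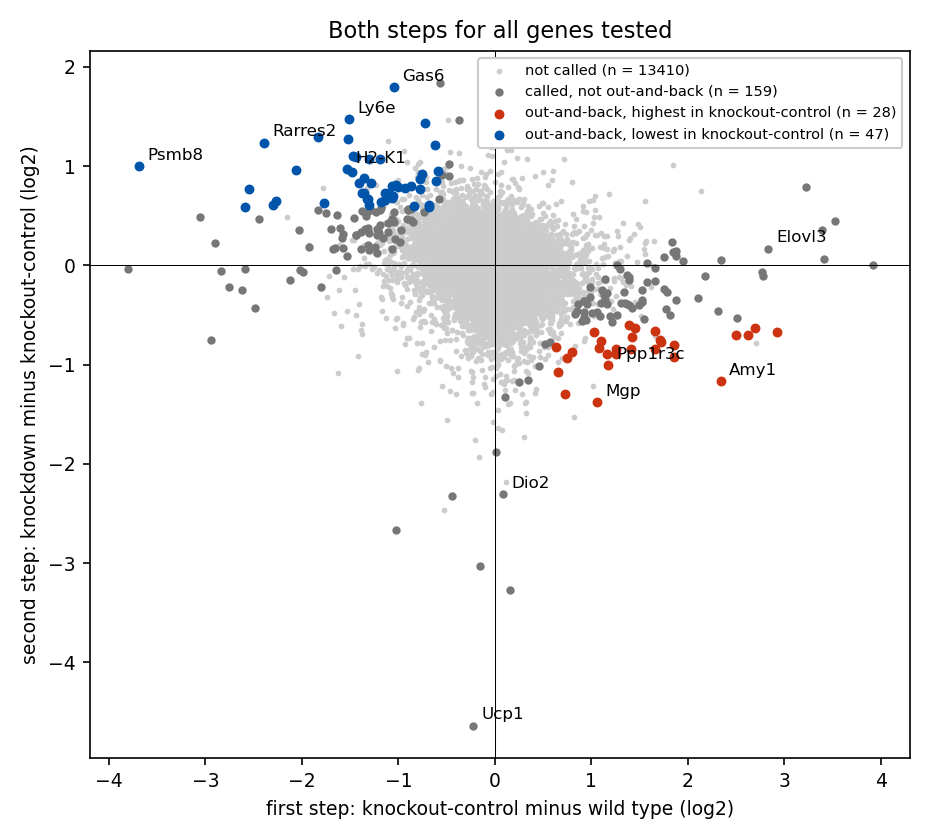
First step (knockout-control minus wild type, log2) on the horizontal axis against the second step (knockdown minus knockout-control, log2) on the vertical axis, 1 point per gene. The 28 genes highest in knockout-control lie at the lower right and the 47 lowest at the upper left.

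The genes highest in knockout-control are given in the order of their roles, a grouping chosen after the values were seen, starting with Amy1, Ppp1r3c, Acacb and Pank1, which act in carbohydrate, lipid and coenzyme A metabolism. Amy1, an amylase that breaks down starch, read 213 and 241 in wild type, 1172 and 1389 in knockout-control and 591 and 512 in knockdown. It differed from the average of the other groups by 1.75 ± 0.14 (SE; limma adjusted p = 0.00341) on the log2 scale, and the first step was 2.34 (0.000204) and the second -1.17 (0.0257). The knockdown arrays lay between the other groups without overlap, so the return was partial. Ppp1r3c, which targets protein phosphatase to glycogen and favours glycogen storage, read 1608 and 1682 in wild type, 3575 and 3948 in knockout-control and 2049.9 and 1679.7 in knockdown, a difference of 1.09 ± 0.13 (SE; limma adjusted p = 0.00834). Its knockdown arrays came close to wild type, at 0.17 ± 0.16 (SE; limma adjusted p = 0.544) from it. Acacb, the acetyl-CoA carboxylase at the mitochondrial surface whose product restrains fatty acid entry, read 821 and 867 in wild type, 2059.8 and 2067 in knockout-control and 1149.6 and 1044 in knockdown, a difference of 1.08 ± 0.12 (SE; limma adjusted p = 0.00617). The 3 groups did not overlap for Acacb. Pank1, which starts coenzyme A synthesis, read 533 and 554 in wild type, 1823 and 2321 in knockout-control and 1294 and 879 in knockdown, and its difference was 1.39 ± 0.18 (SE; limma adjusted p = 0.00927). Here the second step, -0.93, was not called (limma adjusted p = 0.0831), and both knockdown arrays stayed above wild type.

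Mgp, matrix Gla protein, an inhibitor of tissue calcification, read 1049 and 1110.0 in wild type, 2123 and 2469 in knockout-control and 924 and 801 in knockdown, a difference of 1.22 ± 0.13 (SE; limma adjusted p = 0.00541). Both of its steps were called, at 1.06 (limma adjusted p = 0.006) and -1.38 (0.011), and the knockdown arrays lay below both wild-type arrays. Myrip, which links Rab27a on granules to myosin, read 149 and 174 in wild type, 404 and 399.8 in knockout-control and 189 and 215 in knockdown, a difference of 1.03 ± 0.13 (SE; limma adjusted p = 0.00834). Dpyd, the first enzyme of pyrimidine breakdown, read 118 and 113 in wild type, 404 and 464 in knockout-control and 291 and 175 in knockdown, a difference of 1.25 ± 0.18 (SE; limma adjusted p = 0.0151). Both genes had their highest values on the knockout-control arrays; for Dpyd the knockdown arrays lay far from each other and the second step, -0.85, was not called (limma adjusted p = 0.112). Golgb1, the Golgi tether giantin, read 555 and 669.8 in wild type, 1629 and 1732 in knockout-control and 947 and 895 in knockdown, a difference of 1.13 ± 0.13 (SE; limma adjusted p = 0.00684). Zswim6, a zinc-finger gene, read 142 and 152 in wild type, 431 and 278 in knockout-control and 166 and 197 in knockdown, a difference of 0.96 ± 0.17 (SE; limma adjusted p = 0.0393). Hipk3, a homeodomain-interacting protein kinase, read 2179 and 2023 in wild type, 3398 and 3992 in knockout-control and 2294 and 1746 in knockdown, a difference of 0.84 ± 0.15 (SE; limma adjusted p = 0.0385). The knockout-control arrays of Zswim6 lay further apart than those of Golgb1, and Hipk3 showed the smallest difference of the first 12 genes. The other genes of the first 12 by the smaller step were C730049O14Rik and 1700016C15Rik, known by clone names alone.

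**Figure D2:**
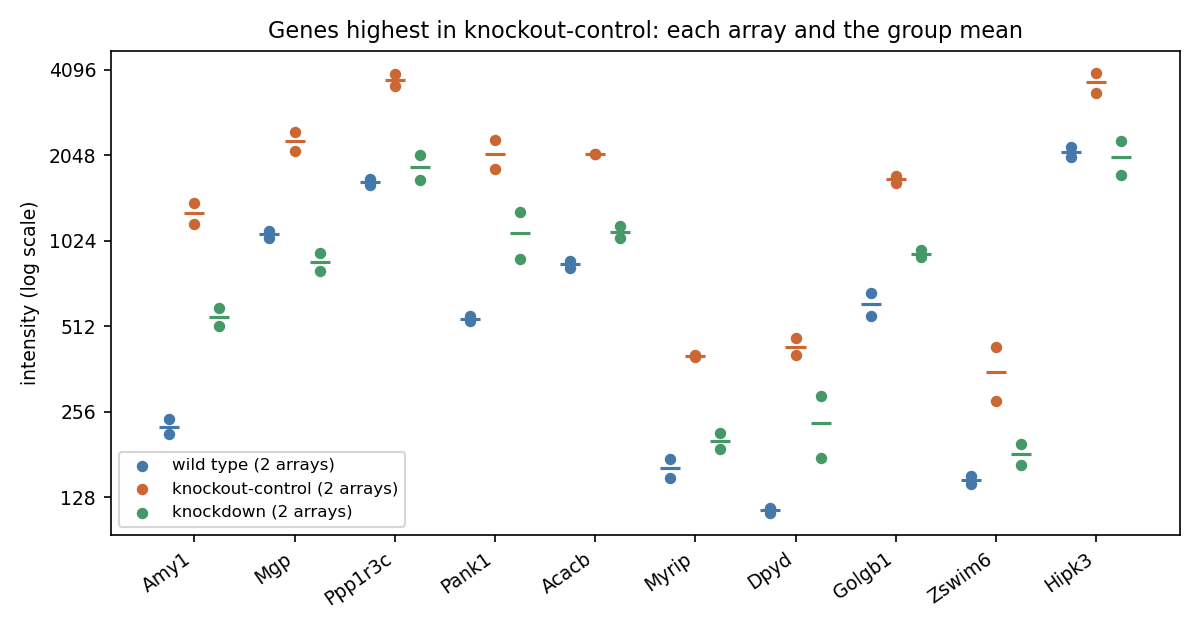
Intensity on a log scale for the described genes highest in knockout-control, with 1 point per array and a bar at the group mean. Both knockout-control points lie above the 4 other points of the same gene, which was a condition for being shown. The knockdown points of Amy1 stay above wild type, while those of Mgp lie below it.

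The remaining genes highest in knockout-control differed from the average of the others by 0.73 to 1.80 on the log2 scale. Cyp2b10, a xenobiotic-inducible cytochrome P450, read 31.0 and 59.6 in wild type, 544 and 545 in knockout-control and 332 and 327 in knockdown, a difference of 1.80 ± 0.16 (SE; limma adjusted p = 0.00366). Its first step was 2.92 and its second -0.67, so knockdown stayed closer to knockout-control than to wild type. Klf2, a transcription factor that restrains adipocyte differentiation, read 99.4 and 100.1 in wild type, 575 and 879 in knockout-control and 496 and 366 in knockdown, a difference of 1.60 ± 0.19 (SE; limma adjusted p = 0.00694). The second step of Klf2, -0.70, was not called (limma adjusted p = 0.203), and knockdown stayed 1.80 above wild type. Coq5, a methyltransferase of coenzyme Q synthesis, showed the opposite balance: it read 1222 and 1264 in wild type, 1949 and 2229.6 in knockout-control and 983 and 702 in knockdown, with a first step of 0.73 (limma adjusted p = 0.0535) and a second of -1.29 (0.0282). Myocd, the myocardin coactivator of smooth muscle genes, read 668 and 658 in wild type, 970.2 and 1156 in knockout-control and 521 and 455 in knockdown, and like Coq5 its knockdown arrays lay below wild type. The others were Sesn1, a stress-induced regulator of TOR signalling, Fgf5, a growth factor, Itih4, a secreted inhibitor of the inter-alpha-trypsin family, Etfbkmt, which methylates the electron transfer flavoprotein, Il18rap, an interleukin receptor subunit, Ldhc, a lactate dehydrogenase, Rnf125, a ubiquitin ligase, Ap4b1, an adaptor subunit of vesicle traffic, Ccser2, Fam13a, and the clones Gm11827 and 2610528A11Rik. Ldhc was the gene among the 28 at which neither step was called.

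Genes lowest in knockout-control included secreted proteins, complement components and genes of antigen presentation, groupings chosen after the values were seen. Rarres2, which encodes the adipokine chemerin, read 3800.1 and 3827 in wild type, 563 and 872 in knockout-control and 1991 and 1445 in knockdown. The difference from the average of the others was -1.81 ± 0.20 (SE; limma adjusted p = 0.00541), with steps of -2.39 and 1.24, the second not called (limma adjusted p = 0.0537). Its knockdown arrays lay between those of the other groups. Serpinf1, the secreted pigment epithelium-derived factor, read 2732 and 2798 in wild type, 947 and 1270.2 in knockout-control and 2632 and 2095 in knockdown, a difference of -1.19 ± 0.16 (SE; limma adjusted p = 0.0109). Its knockdown mean differed from wild type by -0.23 ± 0.19 (SE). Htra1, a secreted serine protease that cleaves matrix proteins, read 966 and 915 in wild type, 294 and 364 in knockout-control and 827 and 649 in knockdown, a difference of -1.26 ± 0.15 (SE; limma adjusted p = 0.00684). C1ra, the complement protease C1r, read 321 and 332 in wild type, 93.0 and 102 in knockout-control and 264 and 226 in knockdown, a difference of -1.29 ± 0.13 (SE; limma adjusted p = 0.00416). For C1ra, the first step was -1.47 (0.00105) and the second 1.10 (0.0227), both called. Gas6, a ligand of the TAM receptors, read 811 and 579.6 in wild type, 305 and 325 in knockout-control and 1324 and 1042 in knockdown, a difference of -1.42 ± 0.17 (SE; limma adjusted p = 0.00684). Its knockdown arrays lay above both wild-type arrays. Pltp, the phospholipid transfer protein, read 4671 and 4502 in wild type, 844 and 1365 in knockout-control and 2788 and 1612 in knockdown, a difference of -1.51 ± 0.25 (SE; limma adjusted p = 0.0238), and its second step, 0.96, was not called (limma adjusted p = 0.174).

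Cd9, a tetraspanin of the cell surface, read 738 and 735 in wild type, 162 and 208 in knockout-control and 602 and 410.2 in knockdown, a difference of -1.56 ± 0.17 (SE; limma adjusted p = 0.00545). Ly6e, an interferon-inducible surface protein, read 2412 and 2035 in wild type, 685 and 836 in knockout-control and 2652 and 1756 in knockdown, a difference of -1.49 ± 0.19 (SE; limma adjusted p = 0.00846). Knockdown and wild-type arrays of Ly6e overlapped, and their means differed by -0.04 on the log2 scale. Aldoc, the aldolase C isoform of glycolysis, read 988 and 1062 in wild type, 271 and 417 in knockout-control and 925 and 803 in knockdown, a difference of -1.40 ± 0.17 (SE; limma adjusted p = 0.00836); both steps were called, at -1.52 and 1.28.

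**Figure D3:**
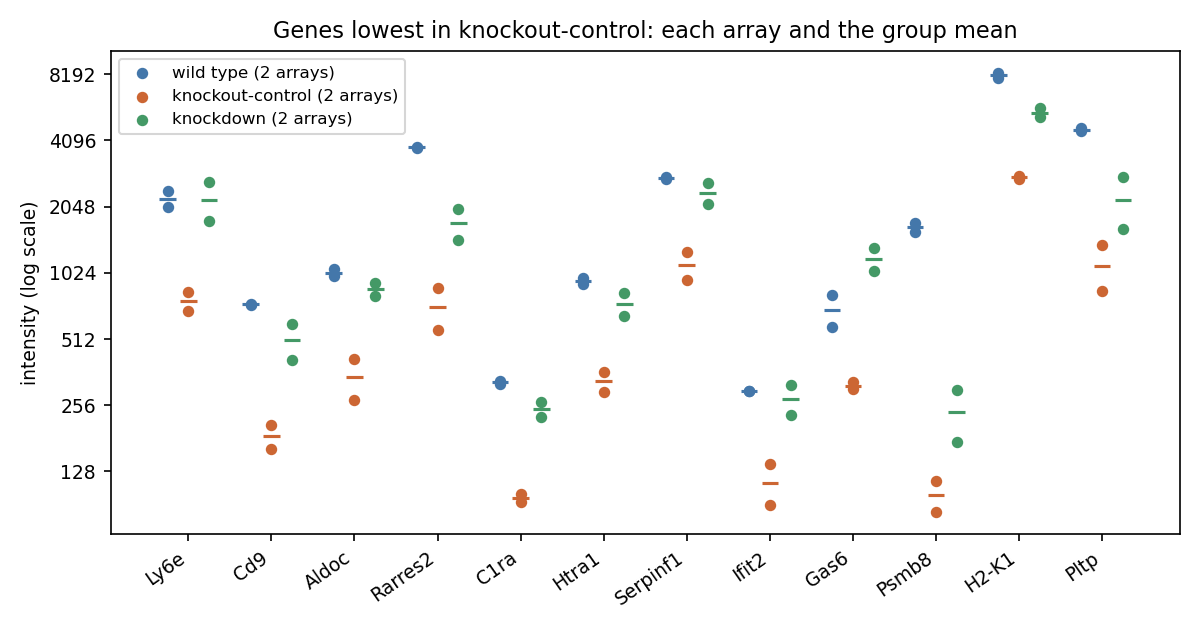
Intensity on a log scale for the 12 described genes lowest in knockout-control, with 1 point per array and a bar at the group mean. Both knockout-control points lie below the 4 other points of the same gene, which was a condition for being shown. Knockdown points of Ly6e overlap wild type, and those of Psmb8 stay far below it.

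Class I antigen presentation was represented by several members. H2-K1, a classical class I heavy chain that shows peptides to T cells, read 8319.6 and 7863 in wild type, 2818 and 2739 in knockout-control and 5239 and 5732 in knockdown, a difference of -1.25 ± 0.12 (SE; limma adjusted p = 0.00412). H2-D1, the companion heavy chain, read 9443 and 9167 in wild type, 3655 and 3759 in knockout-control and 5808 and 6038 in knockdown, a difference of -0.996 ± 0.12 (SE; limma adjusted p = 0.00684). The 3 groups did not overlap for either gene, with wild type highest and knockout-control lowest. The 2 genes are near-identical copies in parts, so signal shared between their probes cannot be assigned. Psmb8, the immunoproteasome subunit that trims such peptides, read 1733 and 1571 in wild type, 83.8 and 116 in knockout-control and 301 and 174 in knockdown, a difference of -2.34 ± 0.20 (SE; limma adjusted p = 0.00341). Most of that difference came from the first step, -3.69; the second, 1.003, was not called (limma adjusted p = 0.0935). Ifit2, an interferon-induced inhibitor of translation, read 297 and 297 in wild type, 89.7 and 138 in knockout-control and 316 and 232 in knockdown, a difference of -1.13 ± 0.18 (SE; limma adjusted p = 0.0187), and its knockdown mean differed from wild type by -0.12. Gbp6, an interferon-induced guanylate-binding protein, read 449.8 and 392 in wild type, 162 and 103 in knockout-control and 317 and 246 in knockdown, and Cd74, the class II invariant chain, read 239 and 228 in wild type, 127 and 163 in knockout-control and 311 and 308 in knockdown. Knockdown arrays of Cd74 lay above wild type, those of Gbp6 below it.

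The promoter windows of H2-K1 and H2-D1 are shown because these members moved together and their windows hold the same motifs. Each window of 250 bases ends at the annotated start and is given 5′ to 3′ on the gene's strand, from RefSeq (GRCm38.p6); capitals mark GGGATTCCC, the core of the NF-kB site known from class I genes, and TTTCNNTTC, the core of the interferon-stimulated response element. H2-K1 is at chr17:34000348-34000597 on the minus strand and H2-D1 at chr17:35262844-35263093 on the plus strand.
H2-K1: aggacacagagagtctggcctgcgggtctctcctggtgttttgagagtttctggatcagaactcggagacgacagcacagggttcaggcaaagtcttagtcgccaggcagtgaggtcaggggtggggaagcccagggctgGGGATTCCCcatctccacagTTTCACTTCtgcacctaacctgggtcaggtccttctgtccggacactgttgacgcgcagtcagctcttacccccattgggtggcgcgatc
H2-D1: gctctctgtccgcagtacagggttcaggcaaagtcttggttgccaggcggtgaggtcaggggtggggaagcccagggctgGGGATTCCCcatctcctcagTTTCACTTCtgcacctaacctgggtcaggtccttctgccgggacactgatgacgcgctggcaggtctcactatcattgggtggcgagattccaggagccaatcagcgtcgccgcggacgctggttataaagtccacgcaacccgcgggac
The windows share a run of 47 identical bases, and the capitalized motifs do not overlap. The first motif starts 110 bases before the window's end in H2-K1 and 170 in H2-D1, and the second 90 and 150. Of the 75 members, 54 had a window, and both strands were searched. A member or gene tested was counted once if any of its windows held the motif, whereas the share of all windows counts each window singly. GGGATTCCC, chosen after these genes were seen, was in 2 of 33 of the lowest members and 0 of 21 of the highest. The 2 were H2-K1 and H2-D1 themselves, so this count is no support for a higher share among members. GGGATTCCC was in 48 of the 10959 genes tested with a window (0.438%) and 99 of all 32851 windows (0.301%). TTTCNNTTC was in 3 of 33 (9.09%) and 1 of 21 (4.76%), against 6.15% of genes tested with a window and 6.31% of all windows. The 3 were H2-K1, H2-D1 and Aldoc. The E-box CACGTG was in 4 of 33 (12.1%) and 2 of 21 (9.52%), against 9.23% of genes tested with a window and 6.02% of all windows. Neither the estrogen-related receptor element TCAAGGTCA nor the cAMP element TGACGTCA was in any member's window. They were found in 0.328% and 2.77% of genes tested with a window and in 0.387% and 1.55% of all windows. These matches describe letters in a window and do not show binding.

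The rest of the 47 lowest genes fell into matrix and surface proteins, enzymes and a mixed remainder. Plod2, a lysyl hydroxylase that prepares collagen for cross-linking, read 2658 and 2650.5 in wild type, 342 and 533 in knockout-control and 811 and 693 in knockdown, a difference of -1.66 ± 0.18 (SE; limma adjusted p = 0.00541). Col6a3, a chain of collagen VI, read 4064 and 4264 in wild type, 1525 and 1690.0 in knockout-control and 2624 and 2738 in knockdown, a difference of -1.04 ± 0.12 (SE; limma adjusted p = 0.00684). Plod2 remained far below wild type in knockdown, whereas Col6a3 regained more of its first step. Further matrix and surface members were Gpc4, a glypican, Itgb5, an integrin subunit, Alcam, an adhesion molecule, Ptprs, a receptor phosphatase, and C1s1, the partner protease of C1r, with Msn and Lima1 beneath the membrane at the actin cytoskeleton. Among enzymes were Sqle, squalene epoxidase of cholesterol synthesis, at -0.77, Gpx7, a glutathione peroxidase family member, at -0.96, Gsta4, a glutathione transferase that clears lipid aldehydes, at -1.59, Cela1, a pancreatic-type elastase, at -1.45, and St6gal1, a sialyltransferase, at -0.84, all log2 differences from the average of the others. Medag, a gene linked to adipocyte differentiation, read 768 and 784 in wild type, 104 and 175 in knockout-control and 258 and 206 in knockdown, most of it a first step of -2.27. Pvt1, a long noncoding RNA, read 259.6 and 271 in wild type, 158 and 164 in knockout-control and 399 and 434 in knockdown, and its knockdown arrays rose above wild type by 0.59 ± 0.14 (SE; limma adjusted p = 0.0319). Sox4, a transcription factor, Il10rb, a cytokine receptor subunit, Cpe, a carboxypeptidase of prohormone processing, Hebp1, a heme-binding protein, P2rx3, an ATP-gated channel, Arhgef6, an exchange factor, Amotl2, Ebpl, Thyn1, Tlcd2, Paqr9, Pgbd5, Tmem45a, Tmem45b, Tmem120a and the clone D830012I24Rik completed the group, with log2 differences between -0.64 and -1.20.

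How far the second step went was described by the share of the first step that it undid, on the log2 scale. The median was 55.4% for the 28 highest genes, whose median steps were 1.41 and -0.83, and 66.4% for the 47 lowest, whose median steps were -1.29 and 0.80. The first step was the larger in 22 of the 28 and 40 of the 47. Knockdown lay beyond wild type on the far side at 6 of the 28 and 7 of the 47. Knockdown against wild type was called at 1372 of all genes (10.1%). That difference does not use the knockout-control means, but the knockout-control arrays enter the shared estimate of the spread. The rule that chose the members also used the wild-type and knockdown means. At 15 of the 28 highest genes knockdown was still called above wild type, and the other 13 were not called. At 14 of the 47 lowest it was called below wild type, at 2 above, and at 31 not called. A step of at least 2-fold both ways was seen at 3 of the highest and 10 of the lowest genes.

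Other probe sets gave a further reading of the members. They read the same RNA on the same arrays that chose the genes, so their agreement is not independent support. The table holds 86 of them for 47 of the 75 genes; 59, for 34 genes, passed the same intensity filter and were tested, and the other 27 were not. Of the 59, 53 had the same sign in the contrast, 26 of them called. Over all 22714 probe sets with a symbol, those of the members included, 396 were called in either direction (1.74%). Of the 8 other probe sets of H2-D1, 4 were tested and all 4 were called, at -0.84 to -2.23. Of the 3 others of H2-K1, all tested, 1 was not called (-0.44). Of the 3 others of Pank1, 2 were tested and both were called, at 1.54 and 0.93. The 6 with the opposite sign belonged to Ccser2, Il10rb, Paqr9, Rarres2, Sesn1 and St6gal1. For Rarres2, 1 other probe set read -2.01 and the other 0.09. Those of Acacb (0.38), Fgf5 (0.26), Golgb1 (0.14 and 0.28), Ccser2, Ap4b1, P2rx3, Pvt1, Ptprs and Thyn1 included values far smaller than that of the brightest probe set and were not called. Sox4 had a called probe set at -0.99 beside others that were not called, at -0.04 to -0.68.

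The members were then set beside 23 gene lists of pathways and gene families. These lists were written with earlier results of these data known, so their shares of called genes are no independent support. Each list is given by its counts and its median log2 difference between knockout-control and the average of the others. The median over all genes tested was 0.01 and 1.72% of them were called. Extracellular matrix genes were the lowest list, with a median of -0.46, 4 of 30 called lower (Col6a3, Fn1, Timp3 and Col6a2) and none higher; the count ran from 0 without either knockout-control array to 10 with median scaling and 11 without knockdown array 2. Col6a3 alone of these 4 met the out-and-back rule. Fn1, fibronectin, had steps of -1.99 and -0.06, so it did not come back, and Timp3, a metalloproteinase inhibitor, had steps of -1.31 and 0.20. For Col6a2, a further collagen VI chain, the larger step was the second, at 0.90 after -0.47. Antioxidant genes had a median of -0.28 and 4 of 22 lower (Gsta4, Sod3, Gpx7 and Gpx1), a count of 0 to 7 over the alternatives. Gsta4 and Gpx7 met the rule, whereas Sod3, the secreted superoxide dismutase, had steps of -2.59 and -0.04, and Gpx1 of -1.11 and 0.34. Interferon response genes had a median of -0.27 and 4 of 21 lower (Psmb8, Psmb9, Ifit2 and Tap1), a count of 0 to 5 over the alternatives. Psmb8 and Ifit2 met the rule, while Psmb9, a further immunoproteasome subunit, had steps of -3.06 and 0.49 and Tap1, the peptide transporter, of -1.32 and 0.38. At the other end stood the tricarboxylic acid cycle, with a median of 0.32 and 1 of 20 higher (Pcx, with steps of 0.99 and -0.22), and oxidative phosphorylation, with a median of 0.26. In the main analysis limma called 0 of 59 oxidative phosphorylation genes in either direction, with 23 at an unadjusted p under 0.05. Variance settings with trend and robust options called 10 of them higher, quantile normalization 2, and the fit without knockdown array 1 called 4 of 56. The median first and second steps were -0.05 and -0.60 for oxidative phosphorylation and -0.04 and -0.73 for the tricarboxylic acid cycle. They were -0.48 and 0.24 for extracellular matrix, -0.55 and -0.009 for antioxidant and -0.13 and 0.35 for interferon response genes. A high or low list median thus did not by itself mean movement out and back. Of 30 transcriptional partners of PGC-1, 1 was higher, Esrra, a nuclear receptor of oxidative genes. Its first step, 0.25, was not called (limma adjusted p = 0.377), and the larger step was the second, at -1.17 (0.02).

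Of the thermogenic list, 5 of 19 genes were called higher, and they had taken different routes. Ucp1 read 4488 and 4761 in wild type, 4199 and 3725 in knockout-control and 156 and 105 in knockdown, a difference of 2.21 ± 0.16 (SE; limma adjusted p = 0.00284). Its first step was -0.22 and its second -4.64, so the call came from the knockdown arrays and not from a movement out. Dio2, which activates thyroid hormone, had steps of 0.09 and -2.30. Elovl3, a fatty acid elongase induced by cold, had steps of 2.83 and 0.17, so it moved at the first step and did not come back. Of these 5, Pank1 alone met the out-and-back rule. Cidea, a lipid droplet protein (0.54, limma adjusted p = 0.0777), Cox7a1, a cytochrome oxidase subunit (0.45, 0.167), Pparg, the regulator of adipocyte differentiation (0.29, 0.307), Fabp4 (0.05, 0.878), Adipoq (-0.05, 0.875) and Pprc1, the related coactivator (0.12, 0.733), were not called.

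In the remaining lists, the share called was 25% for glucocorticoid targets, 17.4% for general adipocyte genes and 15.8% for fatty acid and triglyceride synthesis. It was at most 11.8% in the others, against 1.72% of all genes tested. Glucocorticoid targets had 4 of 20 higher (Cebpd, Fkbp5, Zbtb16 and Tsc22d3) and 1 lower (Cdkn1c), around a median of -0.01. General adipocyte genes had 3 of 23 higher and 1 lower (among Cebpd, Retn, Sncg and Lpin1). Fatty acid and triglyceride synthesis had 3 of 19 higher (Acacb, Mlxipl and Acly), and its median of 0.04 became -0.01 with quantile normalization or median scaling. Glycolysis had 1 of 17 higher (Hk2) and 1 lower (Aldoc). Single genes were called in cholesterol synthesis (Sqle), fatty acid oxidation (Acaa1b), hypoxia response (Car9) and splicing (Srsf2), all lower. Those called in the mitochondrial ribosome (Mrps36) and serum response (Klf2) were higher. Acacb, Aldoc, Sqle and Klf2 were the only called genes of these lists that met the out-and-back rule. Cdkn1c, for example, had steps of -2.75 and -0.22, Car9 of -2.94 and -0.75, and Mrps36 of 0.10 and -1.32. In the main analysis limma called none in the lists for the unfolded protein response, heat shock, circadian clock, cell cycle, RNA interference and ribosomal proteins, where 2 of 21, 3 of 16, 3 of 15, 8 of 29, 1 of 14 and 0 of 28 genes had an unadjusted p under 0.05. Other settings called at most 1 gene lower in the unfolded protein, heat shock and clock lists and at most 2 in each direction in the cell cycle list.

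**Figure D4:**
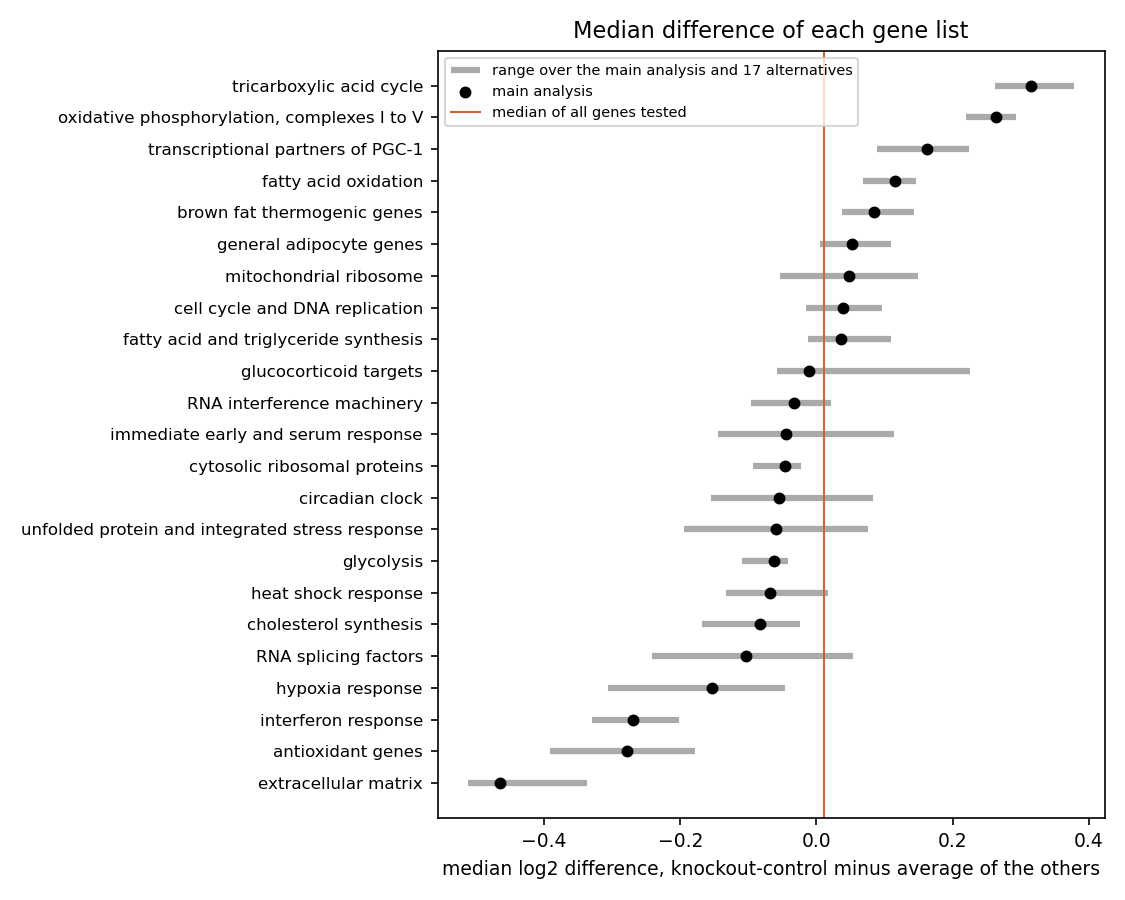
Median log2 difference between knockout-control and the average of the other groups for each of 23 gene lists (points), with the range over the alternatives (grey bars) and the median of all genes (vertical line). Extracellular matrix, antioxidant and interferon lists lie lowest, the tricarboxylic acid cycle and oxidative phosphorylation highest.

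Marker genes of cell types were summed on each array. Preadipocyte and fibroblast markers summed to 7172 and 6227 in wild type, 4224 and 4841 in knockout-control and 6615 and 6246 in knockdown. That sum was lowest on the knockout-control arrays, as were several matrix and secreted members, among them Col6a3, Htra1 and Serpinf1. Other matrix or secreted members, among them Mgp, Itih4 and Fgf5, were highest there. The part of the marker sum in the result was not tested. Most of the sum came from the collagen genes Col1a1 and Col1a2, which are matrix genes themselves and were brightest in wild type. Pdgfra, a receptor of precursor cells, read 256 and 257 in wild type, 305 and 391 in knockout-control and 528 and 489 in knockdown, so it did not follow the sum. Of 5 tested markers, 0 were called higher and 1 lower by limma, with 3 at an unadjusted p under 0.05. The called marker was Dlk1, at 466.5 and 333 in wild type, 384 and 438 in knockout-control and 1609 and 1452 in knockdown, where knockdown was high and the other groups overlapped. General adipocyte markers summed to 31430 to 37010 over all arrays, with 0 of 4 called, and most of the sum came from Fabp4 and Adipoq. Lep, in the sum but not tested, read 813 and 892 in wild type. It was at most 64.4 or without a value on the other arrays. Brown adipocyte markers summed to 27890 and 27260 in wild type, 23140 and 23450 in knockout-control and 13960 and 10850 in knockdown. Smooth muscle markers were highest in wild type (6268 and 5793, against 3389 to 4214 elsewhere), and macrophage, endothelial and skeletal muscle markers overlapped between groups.

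The same contrast made for the other groups gave more calls. Wild type differed from the average of the others at 1404 genes (10.3%) and knockdown at 606 (4.44%), against 1.72% for knockout-control; whether these shares differ was not tested.

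The count of out-and-back genes rested on single arrays. Without knockout-control array 1 it was 0, as no gene was called by limma in the contrast (1177 had an unadjusted p under 0.05), without knockout-control array 2 it was 15, without either wild-type array 46 and 49, and without knockdown array 1 or 2 it was 131 and 198. None of the 75 genes was called in all 6 of these fits; 11 were called in 5, 33 in 4, 3 in 3 and 28 in 2. Amy1, Cyp2b10, Cd9, Aldoc, Rarres2, C1ra, Psmb8 and Plod2 were among the 11. Other settings moved the balance of directions: of the genes called in the contrast, 47% were higher in the main analysis, 38.7% with quantile normalization and 33.8% with median scaling. It moved the other way, to 55.7% higher, with no filter and to 63.9% without knockdown array 1, where 88 of the out-and-back genes were highest and 43 lowest; without knockdown array 2 it was 30.4%, with 31 and 167.

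**Figure D5:**
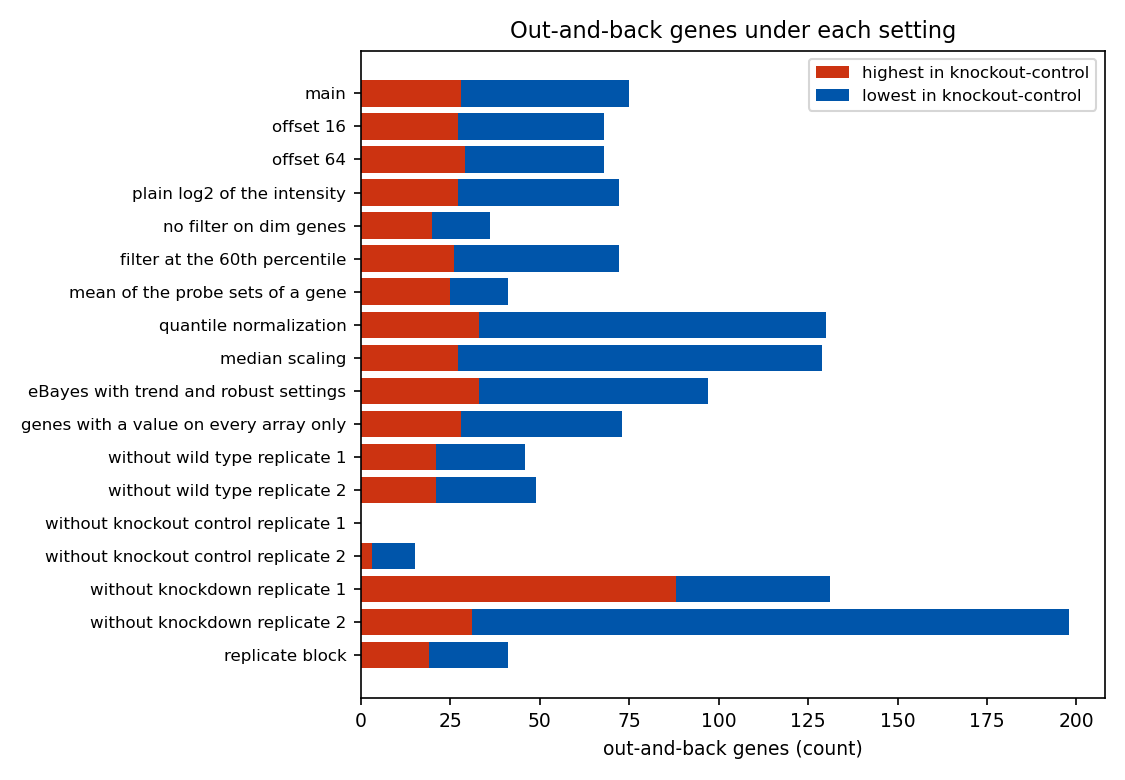
Count of out-and-back genes in the main analysis and under each alternative, stacked by direction. The count is 75 in the main analysis, 0 without knockout-control array 1 and 198 without knockdown array 2.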

How the data were processed

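The deposited table holds linear intensities for each of 6 arrays, with 1 value for every probe set, per its header; how the scanner files were scaled and summarised is not given in the sources used here. Of 45037 probe sets, 34945 had 1 gene symbol, 932 several and 9160 none here. Cells holding a missing mark (5285) or nothing (870) were left out. Log2(intensity + 32) was fitted with limma 3.58.1 in R 4.3.3 as group means with eBayes and Benjamini-Hochberg adjustment over 13644 genes, each represented by its brightest probe set and above the 40th percentile of mean level (intensity 164); 14 genes without a value in a group were left out. Log2 differences are on this scale and understate those of dim genes. The genes named were the 12 highest and 12 lowest by the smaller step, up to 4 called members per list, and 11 key genes. The 12 in each direction were taken among members with both knockout-control arrays beyond all other arrays and a value on every array. Other members are named because every member is accounted for. The members and lists were chosen with earlier results of these data known. The procedure was tested on simulated data. The number of arrays limits the precision. Alternatives covered the offset, the filter, the probe sets, scaling, variance settings, each array left out and the replicate block.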

Additional observations from a re-analysis of the deposited data

How the results depend on the processing

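No named gene changed direction where it was called in the main analysis or in the alternative. A change of sign at a gene called in neither was not counted. Of 1056 values of 63 named genes under 17 alternatives, 819 kept their side of the threshold, 228 lost the call and 9 gained it. Counts are given against those of the main analysis. For the contrast of knockout-control with both other groups (234), no filter gave 61, the mean of probe sets 100, quantile normalization 649, median scaling 405, trend and robust variance 396, and leaving out an array 0 to 739. For out-and-back genes (75) these were 36, 41, 130, 129, within 1.5 times, and 0 to 198; a minimum step of 2-fold gave 13 and no minimum step 202. Both steps by themselves (0) gave 1 gene with the mean of probe sets (Myg1, limma adjusted p = 0.0214) and 1 with trend and robust variance (H2-K1, 0.0235), each named after its value was seen. For the first step (825), no filter gave 379, the mean of probe sets 474, quantile normalization 1651 and leaving out an array 234 to 1783. For the second step (114), plain log2 gave 68, no filter 9, the 60th percentile 199, the mean of probe sets 13, quantile normalization 378, trend and robust variance 331 and leaving out an array 8 to 514. Wild type against the others (1404) gave 720, 885 and 2392 with no filter, the mean of probe sets and quantile normalization, and 309 to 2690 without an array; knockdown against the others (606) gave 177, 317, 1263 and 247 to 1250. Calls in the gene lists (39) numbered 14, 18 and 70 in that order, 71 with trend and robust variance and 0 to 75 without an array. Where an array was left out, the lone array of its group was taken to vary like the others. The cause of these shifts was not tested.

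Same-numbered arrays did not deviate together (correlations 0.20, -0.15 and -0.50), so the numbers were not taken to pair the samples. With the replicate block the counts were 82 for the contrast, 41 out-and-back genes, 367 for the first step, 14 for the second, 703 for wild type, 246 for knockdown and 19 in the lists. With the knockdown numbers crossed, a pairing added after seeing the data, the block gave 937 and 130 for the contrast and the out-and-back genes.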

Other observations

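Probe sets with no single gene symbol were tested in a fit with the named ones. Of 4282 such probe sets, 46 were called in the contrast of knockout-control with both other groups and 19 met the out-and-back rule, 9 highest and 10 lowest. Of the 22714 named probe sets in that fit, 325 were called and 123 met the rule.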
